A study of Rattus norvegicus with 20 samples.

Results

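Aminoacyl-tRNA synthetases are the enzymes that join each amino acid to its own transfer RNA, and here their transcripts were followed in cultures of neonatal rat cardiomyocytes, heart muscle cells from newborn rats. A gene was taken as a member when its protein name in the deposited table held the words "--tRNA ligase", and genes named "Histidine--tRNA ligase" in that spelling were left out. Of 38 such genes, 2 were left out and 36 remained, of 15503 genes in the table. A member counted as mitochondrial when its name said so, which gave 17 mitochondrial and 19 cytosolic members. Hars2, named "Probable histidine--tRNA ligase, mitochondrial" with a small letter, stayed in by the spelling of the rule, and the counts of called genes without it are given below. All 36 members passed the filter on low counts.

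Messenger RNA was sequenced after 72 h in 4 groups of 5 libraries. The cells received histidine at 100 nM with doxorubicin at 1 µM, doxorubicin at 1 µM alone, histidine at 100 nM alone, or phosphate-buffered saline (PBS). Doxorubicin is an anthracycline cancer drug that is toxic to heart muscle, and histidine is an amino acid of proteins; the title of the series names plasma histidine as a marker of atrial fibrillation that recurs once an ablation has been done. The labels name no strain, and whether the libraries of a group are separate cultures is not stated. The p-values therefore measure only how far these samples spread, and that spread may be technical.

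Each synthetase activates its amino acid with ATP and transfers it to the matching tRNA, and several of them also proofread and remove a wrong amino acid. Cells keep separate sets of these enzymes for cytosolic ribosomes and for mitochondrial ribosomes, which make core subunits of the respiratory chain that heart muscle depends on. In the cytosol a group of synthetases is held in a multi-synthetase complex by the scaffold proteins Aimp1, Aimp2 and Eef1e1. When amino acids run short, uncharged tRNA activates the kinase Gcn2 (Eif2ak4), and the transcription factor Atf4 then switches on genes of amino acid supply, among them many cytosolic synthetases.

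The promoters of 31 of the 36 members were available from RefSeq (GRCr8), from 250 bases before to 50 bases after the gene's start. They were searched on both strands for TGATGCAA, a form of the element through which C/EBP and ATF proteins act together. It was present in 7 of 16 cytosolic members and in 0 of 15 mitochondrial members, against 266 of 33469 rat promoters of the same length (0.795%). The windows of 6 of these 7 promoters are shown because they mark synthetase genes that hold the element, with the element in capitals in either orientation, read 5′ to 3′ along the gene.
Cars1: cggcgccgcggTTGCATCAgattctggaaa
Iars1: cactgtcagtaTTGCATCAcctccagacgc
Mars1: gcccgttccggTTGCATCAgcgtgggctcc
Nars1: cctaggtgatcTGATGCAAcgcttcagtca
Tars1: ctggcgtcccgTTGCATCAgctggttagct
Yars1: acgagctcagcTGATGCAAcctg

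In GRCr8 these windows were at chr1:208225334-208225363 (minus strand) for Cars1 and chr17:15193658-15193687 (minus) for Iars1. That of Mars1 was at chr7:65023752-65023781 (minus), that of Nars1 at chr18:60275778-60275807 (minus), that of Tars1 at chr2:62114811-62114840 (minus) and that of Yars1, where the promoter entry ended, at chr5:146820190-146820212 (plus). The element began 27, 24, 17 and 14 bases before the start of the gene in Tars1, Iars1, Mars1 and Nars1. In Cars1 and Yars1 it lay past the start, at bases 18 and 39. With the looser TGATGNAA, which includes TGATGCAA, the counts were again 7 and 0, while 3.98% of all promoters held it. A match of letters is a description and does not show that a protein binds there.

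Total counts ran from 53246205 to 83624651 per library. The first principal component of all genes (62.6% of the variance) separated the libraries with doxorubicin from those without, and the second (7.43%) set doxorubicin replicate 4 at 108 apart from the other libraries at -18.9 to 9.03. Summed over 10 cardiomyocyte markers, levels in CPM, read counts scaled to the size of the library, were 140 to 164 with both compounds, 144 to 179 with doxorubicin, 771 to 903 with histidine and 861 to 1007 with PBS. None of these markers was at 0. Markers of other cells were also present, and most of their sums with PBS lay above that of the cardiomyocyte markers. The 10 fibroblast markers summed to 32151 to 56460 CPM with doxorubicin and 74775 to 82205 CPM with PBS. Doxorubicin replicate 3 was the lowest library. With PBS, smooth muscle and pericyte markers summed to 7319.9 to 8468 CPM and macrophage and leukocyte markers to 2016 to 2086 CPM. Endothelial markers were lower, at 22.1 to 32.6 CPM. The synthetase values are of whole cultures, and the share of each cell type in them was not tested.

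The 2 sets differed in level without either compound. In PBS the median over members of the mean FPKM, a read count scaled to gene length and library size, was 3.16 for mitochondrial members (1.55 to 24.7) and 38.6 for cytosolic members (2.92 to 106), beside 6.11 for all genes in the table. Eprs1, which charges both glutamate and proline tRNA, was highest, with 107, 106, 102, 106 and 109 FPKM in the 5 PBS libraries. Nars1 for asparagine followed with 109, 105, 104, 105 and 107 FPKM, and Sars1 for serine with 101, 94.1, 103, 112 and 100.4 FPKM. The libraries of these 3 overlapped, so their order was not settled by this spread.

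At the low end stood mitochondrial enzymes. Ears2, for glutamate, had 1.67, 1.68, 1.75, 1.30 and 1.34 FPKM in the PBS libraries. Nars2, for asparagine, had 1.55, 1.91, 1.53, 1.65 and 1.78 FPKM. Their libraries overlapped. The levels of the sets crossed in a few places. Hars2 (24.7 ± 1.02 FPKM, SD, n = 5), Iars2 for isoleucine (16.8 ± 0.604) and Tars2 for threonine (9.81 ± 1.24) were the highest mitochondrial members. Tars3, a cytosolic threonyl enzyme related to Tars1, was low at 2.92 ± 0.225 FPKM. Among neighbours in the order, the PBS libraries were fully apart between Gars1 and Kars1, Kars1 and Qars1, Mars1 and Tars1, Tars1 and Vars1, Iars1 and Yars1, Cars1 and Iars2, Iars2 and Tars2, and Tars2 and Sars2. All other neighbours overlapped.

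**Figure D1:**
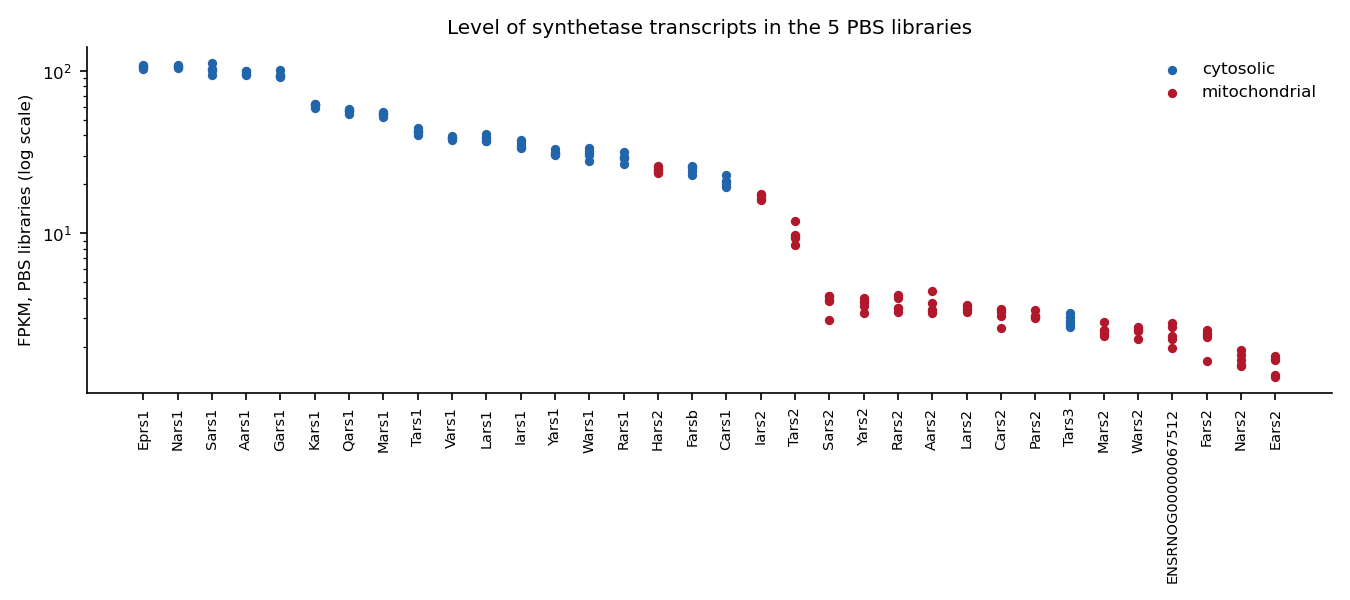
FPKM (log scale) of synthetase transcripts in the 5 PBS libraries, 1 point per library, ordered by the mean, with cytosolic members in blue and mitochondrial members in red. Cytosolic members other than Tars3 have means of 20.8 or more, and mitochondrial members other than Hars2, Iars2 and Tars2 have means of 3.78 or less.

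Most of the cytosolic synthetase transcripts that changed with doxorubicin fell, while few mitochondrial ones changed and their share called higher was not above that of all genes. Against PBS, doxorubicin raised 5 members and lowered 11 with an adjusted p under 0.05, and 20 did not pass (edgeR's quasi-likelihood test, Benjamini-Hochberg adjustment over 15449 genes). Among all genes tested 43.2% passed, 21.7% higher and 21.5% lower, so the total of 16 of 36 was close to the background. The cytosolic set had 2 higher and 10 lower of 19, with a median log2 fold change of -0.19. The mitochondrial set had 3 higher and 1 lower of 17, with a median of 0.08, and all genes had a median of 0.05. Without Hars2 the mitochondrial set had 3 higher and 1 lower of 16. The groups did not overlap for 5 members that were higher and 10 that were lower, where 13.6% and 17.5% of all genes did so. The changes ran from -0.54 to 0.50 on the log2 scale over the 36 members.

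The same comparison in the presence of histidine, both compounds against histidine, shares no library with the first. Both were tested in 1 fit whose spread was estimated from all 20 libraries, so their calls are not independent. Leaving out doxorubicin replicates 3 and 4, which are in neither group of this comparison, gave 3 higher and 13 lower in it. Both compounds raised 3 members and lowered 11, where 19.9% of all genes rose, 20.3% fell and 40.2% passed in either direction. The cytosolic set had 0 higher and 10 lower of 19 with a median of -0.21, and the mitochondrial set had 3 higher and 1 lower of 17 with a median of 0.04. All genes had a median of 0.01. The enzymes called lower in both comparisons were Eprs1, Iars1, Lars1, Mars1, Sars1, Tars1, Vars1, Wars1 and Yars1, all cytosolic. Those called higher in both were Iars2, Nars2 and Wars2, all mitochondrial. The groups did not overlap for 3 members higher and 4 lower, against 16.5% and 18.7% of all genes. None was called in opposite directions, and 18 members were called in neither. The share of all genes called in both comparisons was not computed, so the counts in common have no background beside them.

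**Figure D2:**
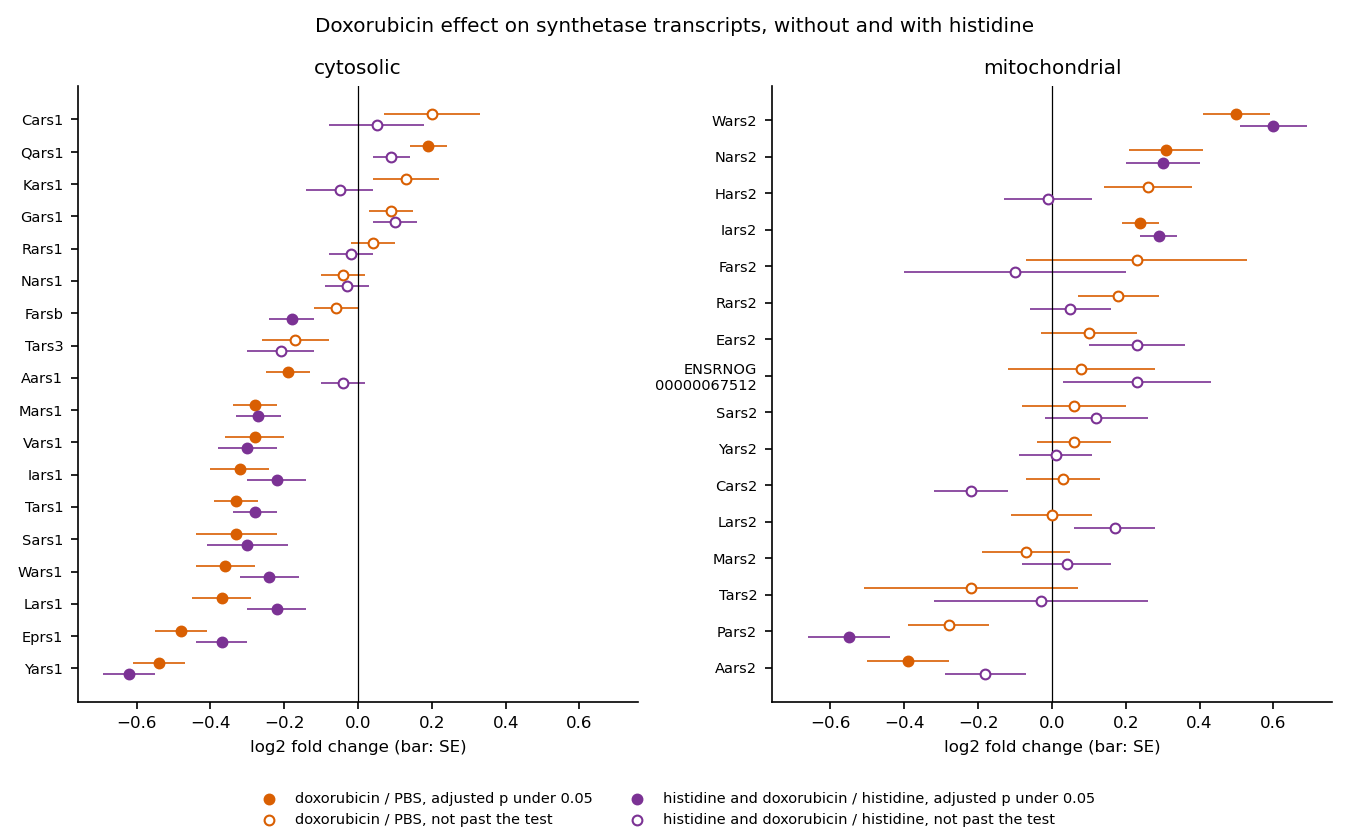
Log2 fold change (points) with its SE (bars) for the members in doxorubicin against PBS (orange) and in both compounds against histidine (purple), cytosolic members left and mitochondrial members right, in the order of the first. Filled points passed an adjusted p of 0.05, with 9 cytosolic falls and 3 mitochondrial rises in common to the comparisons. The share of all genes in common was not computed.

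Yars1, the tyrosyl enzyme (chr5:141535759-141563833, plus strand, in the deposited coordinates, with the build mRatBN7.2 named in the submitters' processing notes), fell most. It had 65.3, 65.8, 58.0, 78.7 and 67.8 CPM with doxorubicin, against 97.3, 103, 94.7, 97.7 and 96.3 CPM with PBS. With both compounds it had 65.2, 60.9, 61.2, 63.7 and 66.3 CPM, against 102, 99.1, 90.4, 99.8 and 96.2 CPM with histidine. Every library with doxorubicin lay below every library without it. The log2 fold change was -0.54 ± 0.07 (SE) with doxorubicin over PBS (edgeR adjusted p = 1.17e-06) and -0.62 ± 0.07 with both compounds over histidine (edgeR adjusted p = 2.15e-07).

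Eprs1, the glutamyl-prolyl enzyme (chr13:96901575-96971966, plus strand), had 448, 417, 369.9, 366 and 424 CPM with doxorubicin, against 567, 569, 537, 573 and 585 CPM with PBS. It had 439, 442, 386, 421 and 450 CPM with both compounds, against 575, 549.8, 474, 560.2 and 601 CPM with histidine. The groups of each comparison did not overlap, and histidine replicate 3 was the lowest of the libraries without doxorubicin. The log2 fold changes were -0.48 ± 0.07 (edgeR adjusted p = 1.27e-05) and -0.37 ± 0.07 (edgeR adjusted p = 0.000281).

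Lars1, the leucyl enzyme, which also acts as a leucine sensor (chr18:34201549-34255931, minus strand), had 139, 132, 125, 101 and 133 CPM with doxorubicin, against 170.5, 166, 155, 157 and 164 CPM with PBS. With both compounds it had 138, 141, 122, 140.1 and 139 CPM, against 160.4, 162, 134, 169.8 and 167 CPM with histidine. Doxorubicin and PBS did not overlap, while histidine replicate 3, at 134 CPM, lay among the libraries with both compounds. The log2 fold changes were -0.37 ± 0.08 (edgeR adjusted p = 0.00092) and -0.22 ± 0.08 (edgeR adjusted p = 0.0295).

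Wars1, the tryptophanyl enzyme, also known as a gene induced by interferon (chr6:127776090-127807269, minus strand), had 97.5, 97.3, 85.8, 84.0 and 97.0 CPM with doxorubicin, against 117, 122, 108, 116 and 129 CPM with PBS. It had 97.8, 109.5, 90.6, 104 and 87.1 CPM with both compounds, against 122, 125, 95.3, 111 and 126 CPM with histidine. The first pair of groups was apart and the second overlapped through histidine replicate 3. The log2 fold changes were -0.36 ± 0.08 (edgeR adjusted p = 0.00174) and -0.24 ± 0.08 (edgeR adjusted p = 0.0253).

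The other cytosolic enzymes that fell with doxorubicin over PBS changed by -0.33 for Sars1 (serine) and Tars1 (threonine), -0.32 for Iars1 (isoleucine), -0.28 for Vars1 (valine) and Mars1 (methionine) and -0.19 for Aars1 (alanine) on the log2 scale. With both compounds over histidine the log2 values were -0.30 for Sars1, -0.28 for Tars1, -0.22 for Iars1, -0.30 for Vars1 and -0.27 for Mars1. Aars1 was at -0.04 there and was not called (edgeR adjusted p = 0.661). Farsb, the beta subunit of the phenylalanyl enzyme, was called only in that comparison, at -0.18 (edgeR adjusted p = 0.0307), with -0.06 for doxorubicin over PBS. Mars1 overlaps Ddit3 on the opposite strand, which was at 0.35 ± 0.14 with doxorubicin over PBS (edgeR adjusted p = 0.0552), so part of its reads may be from that gene. Aars1 was not called in a fit of doxorubicin and PBS alone or without doxorubicin replicates 3 and 4. Sars1 was the least steady of these calls, and its doxorubicin and PBS libraries overlapped: leaving out doxorubicin replicate 3 gave -0.24 (edgeR adjusted p = 0.0594), and leaving out PBS replicate 4 also ended the call. With both compounds over histidine, Sars1 lost its call in 8 of 10 fits that left out 1 library. In that comparison Iars1, Lars1 and Wars1 each lost theirs in 5 and Farsb in 6, with edgeR adjusted p of at most 0.0985.

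Qars1, the glutaminyl enzyme (chr8:109207705-109215739, plus strand), rose with doxorubicin over PBS. It had 205, 207, 202, 187 and 203 CPM with doxorubicin, against 175, 168, 177, 178 and 181 CPM with PBS. All doxorubicin libraries were above all PBS libraries, with replicate 4 the nearest. The log2 fold change was 0.19 ± 0.05 (edgeR adjusted p = 0.00209). With both compounds Qars1 had 197, 185, 203, 186 and 187 CPM, against 179, 181, 188, 174 and 180 CPM with histidine, and the log2 fold change of 0.09 ± 0.05 did not pass (edgeR adjusted p = 0.144).

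The remaining cytosolic members did not pass in either comparison. For doxorubicin over PBS the log2 fold changes were 0.20 for Cars1, 0.13 for Kars1, 0.09 for Gars1, 0.04 for Rars1, -0.04 for Nars1 and -0.17 for Tars3. Kars1 had 217 CPM in doxorubicin replicate 4 and 135 to 158 CPM in the other doxorubicin libraries, and without replicate 4 its change was -0.0. Gars1 (glycine) and Kars1 (lysine) are known to serve both compartments from a single gene, though their names place them in the cytosolic set.

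**Figure D3:**
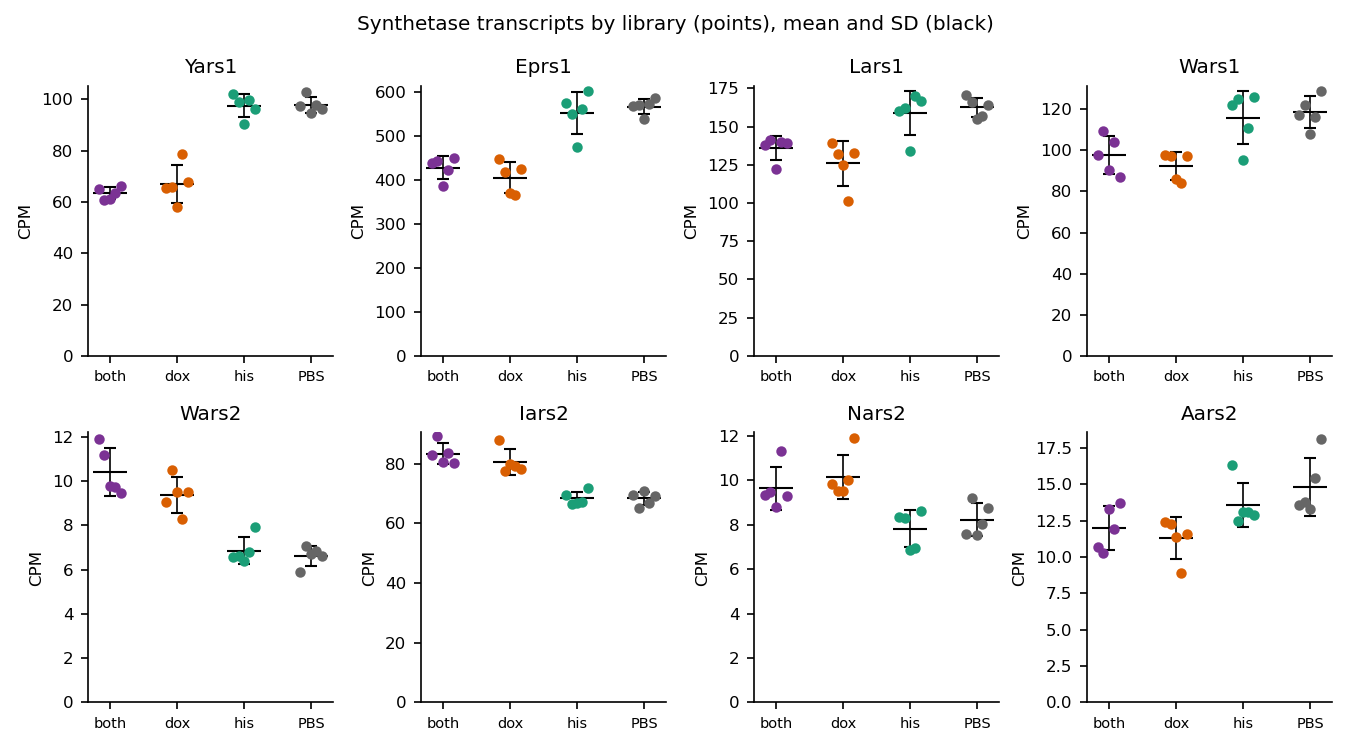
CPM per library (points) with mean and SD (black) for the 4 cytosolic members with the largest fall and the 4 mitochondrial members called with doxorubicin over PBS, in cells with both compounds (both), doxorubicin (dox), histidine (his) and PBS. Yars1 and Eprs1 libraries with doxorubicin lie below all libraries without it, and those of Wars2 and Iars2 lie above.

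Among the mitochondrial enzymes, Wars2 rose most. Wars2, for tryptophan (chr2:186459444-186543571, plus strand), had 9.08, 10.5, 9.53, 8.27 and 9.52 CPM with doxorubicin, against 5.88, 7.06, 6.73, 6.85 and 6.60 CPM with PBS. It had 11.9, 11.2, 9.79, 9.72 and 9.46 CPM with both compounds, against 6.57, 6.63, 6.38, 6.82 and 7.91 CPM with histidine. Every library with doxorubicin was above every library without it. The log2 fold changes were 0.50 ± 0.09 (edgeR adjusted p = 0.000137) and 0.60 ± 0.09 (edgeR adjusted p = 1.94e-05).

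Iars2, for isoleucine (chr13:96831484-96865501, minus strand), had 88.0, 77.6, 79.8, 79.2 and 78.1 CPM with doxorubicin, against 69.4, 65.1, 70.8, 66.9 and 69.3 CPM with PBS. With both compounds it had 82.9, 89.2, 80.6, 83.7 and 80.2 CPM, against 69.5, 66.5, 66.9, 67.1 and 71.7 CPM with histidine. Again the libraries with and without doxorubicin did not overlap. The log2 fold changes were 0.24 ± 0.05 (edgeR adjusted p = 0.000732) and 0.29 ± 0.05 (edgeR adjusted p = 0.000125).

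Nars2, for asparagine (chr1:151300467-151413521, plus strand), had 9.83, 9.53, 9.51, 10 and 11.9 CPM with doxorubicin, against 7.58, 9.19, 7.52, 8.04 and 8.77 CPM with PBS. With both compounds it had 9.34, 9.48, 8.78, 11.3 and 9.29 CPM, against 8.35, 8.28, 6.87, 6.95 and 8.62 CPM with histidine. Both pairs of groups were apart by narrow gaps. The log2 fold changes were 0.31 ± 0.10 (edgeR adjusted p = 0.0157) and 0.30 ± 0.10 (edgeR adjusted p = 0.017). Without doxorubicin replicate 5 the first was 0.24 (edgeR adjusted p = 0.0521), and the second lost its call without both-compound replicate 4 (0.24, edgeR adjusted p = 0.0609) or histidine replicate 4.

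Aars2, for alanine, was the 1 mitochondrial enzyme called lower with doxorubicin over PBS. It had 12.4, 12.3, 11.4, 8.88 and 11.6 CPM with doxorubicin, against 13.6, 13.8, 13.3, 15.4 and 18.1 CPM with PBS. The groups were apart, and doxorubicin replicate 4 was the lowest. The log2 fold change was -0.39 ± 0.11 (edgeR adjusted p = 0.00955), and the call was lost when doxorubicin replicates 3 and 4 were both left out. Its interval (chr9:15297531-15496090, minus strand) overlaps 7 other genes of the table. Of these, Slc29a1 fell by 0.51 on the log2 scale. Nfkbie had 65.9 to 206 CPM with doxorubicin and 122 to 154 CPM with PBS. Slc35b2 had 19.2 to 87.5 CPM with doxorubicin and 14.4 to 43.1 CPM with PBS, so the groups of both genes overlapped. Whether any exons are shared was not tested. The library preparation does not keep the strand, so reads of overlapping genes cannot be told apart. With both compounds Aars2 had 10.7, 10.3, 13.3, 11.9 and 13.7 CPM, against 16.3, 12.5, 13.1, 13.1 and 12.9 CPM with histidine, which overlapped (-0.18 ± 0.11, edgeR adjusted p = 0.236).

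Pars2, for proline (chr5:121434096-121439154, plus strand), fell with both compounds over histidine. It had 6.73, 7.92, 8.36, 6.71 and 6 CPM with both compounds, against 12, 10.7, 9.99, 11.1 and 8.30 CPM with histidine. The groups touched, since histidine replicate 5 lay just below the highest both-compound library. The log2 fold change was -0.55 ± 0.11 (edgeR adjusted p = 0.000671). With doxorubicin Pars2 had 8.40, 7.58, 7.98, 10.6 and 9.13 CPM, against 11.2, 10.4, 11.1, 9.59 and 10.9 CPM with PBS. That log2 change of -0.28 ± 0.11 did not pass at an edgeR adjusted p of 0.0507, though it passed without doxorubicin replicate 4 or PBS replicate 4. The deposited FPKM of Pars2 showed no such fall, at 3.14 ± 0.58 with doxorubicin and 3.13 ± 0.131 with PBS (SD, n = 5 each). With both compounds the FPKM was 2.30 ± 0.34, against 2.94 ± 0.374 with histidine.

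The other 12 mitochondrial members were called in neither comparison. Their log2 fold changes for doxorubicin over PBS included -0.22 for Tars2 and 0.26 for Hars2. The SE was 0.30 for Fars2 (phenylalanine) and 0.29 for Tars2, so changes of the size seen in Wars2 were not resolvable for these. Tars2 had 4.31 CPM in doxorubicin replicate 3 and 22.4 to 30.8 CPM in the other doxorubicin libraries, against 22.4 to 31.6 CPM with PBS; without that library its log2 change was 0.04. Fars2 had 0.959 CPM in both-compound replicate 2 and 5.73 to 6.07 CPM in the other 4. Hars2 had 129.7 CPM in doxorubicin replicate 4 and 69.8 to 74.6 CPM in the other 4 doxorubicin libraries, against 66.8 to 74.3 CPM with PBS. Its log2 change of 0.26 became 0.05 without that library. The RefSeq table lists Zmat2 both as a synonym of Hars2 and as its neighbour, and whether reads of that gene are counted here was not tested. The gene ENSRNOG00000067512, a further row named as a glutamate enzyme, had no symbol, and reads may be shared between it and Ears2. The lowest read count of any member in a library was 58, for Fars2.

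**Figure D4:**
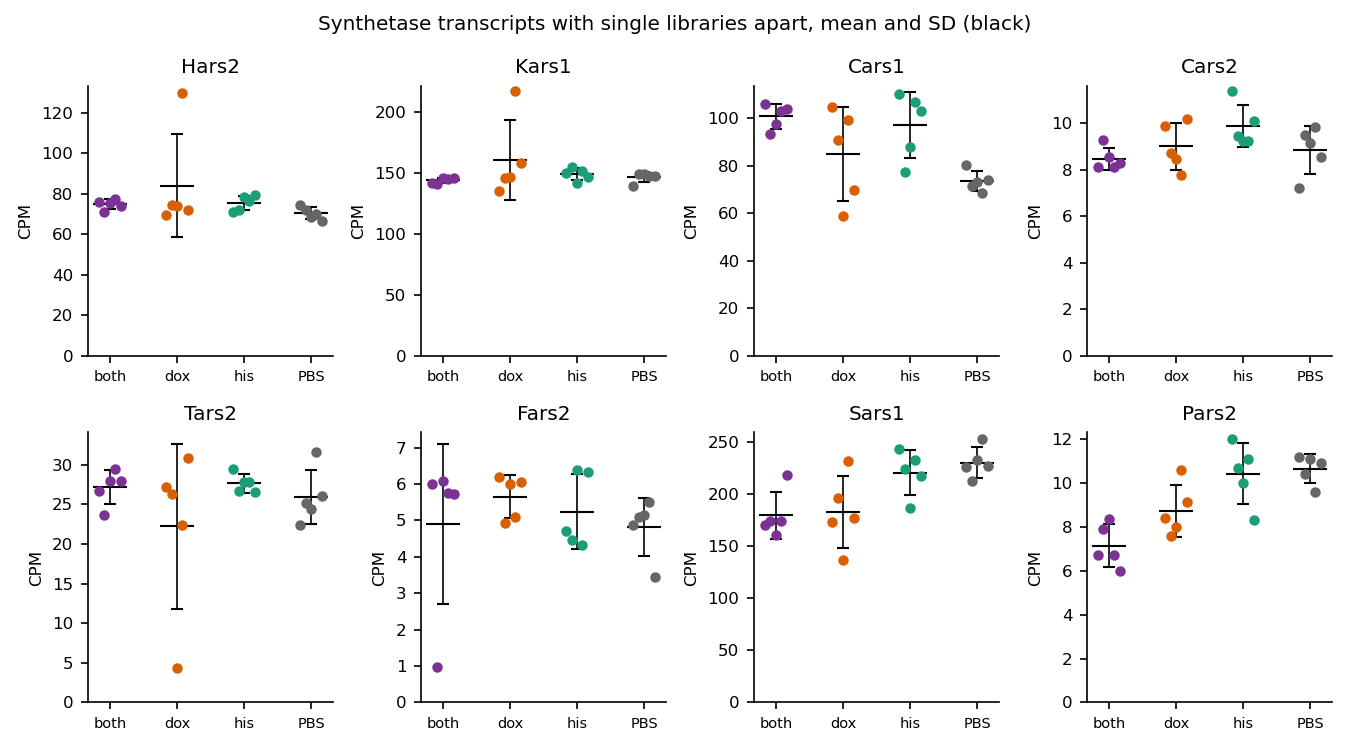
CPM per library (points) with mean and SD (black) for 8 members with scattered values or with the smallest p in a histidine comparison, in cells with both compounds (both), doxorubicin (dox), histidine (his) and PBS. Doxorubicin replicate 4 is highest for Hars2 (129.7 CPM) and Kars1 (217), Tars2 is at 4.31 in doxorubicin replicate 3 and Fars2 at 0.959 in both-compound replicate 2.

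Set side by side by amino acid, 14 pairings of a cytosolic and a mitochondrial enzyme could be formed. Their ratios did not all fall with doxorubicin. The Cars1 to Cars2 ratio of FPKM was 7.70 ± 2.12 with doxorubicin and 6.67 ± 1.22 with PBS (SD, n = 5 each). The Rars1 to Rars2 ratio was 7.43 ± 1.52 and 8.02 ± 1.20. Several ratios fell. The Nars1 to Nars2 ratio was 49.6 ± 4.51 with doxorubicin and 63.5 ± 6.07 with PBS. The Lars1 to Lars2 ratio was 8.78 ± 0.952 and 11.2 ± 0.598. Mean ratios were also lower with doxorubicin for Eprs1 to Ears2 (46.5 and 69.8) and Sars1 to Sars2 (20.5 and 27.4). Those for alanine, cysteine and threonine were higher. The ratios for tryptophan, tyrosine and isoleucine, which also fell, are given next for all groups. The Wars1 to Wars2 ratio of FPKM was 6.56 ± 0.601 with both compounds, 6.93 ± 0.529 with doxorubicin, 11.7 ± 1.13 with histidine and 12.4 ± 1.25 with PBS (SD, n = 5 each). For tyrosine the Yars1 to Yars2 ratio was 5.81 ± 0.764, 5.67 ± 0.748, 8.92 ± 0.814 and 8.55 ± 0.76 in the same order of groups. For isoleucine the Iars1 to Iars2 ratio was 1.56 ± 0.0851, 1.49 ± 0.216, 2.15 ± 0.223 and 2.10 ± 0.0864. In tryptophan and isoleucine the 2 enzymes were called in opposite directions, while for tyrosine only Yars1 was called. For alanine both Aars1 (-0.19) and Aars2 (-0.39) were lower with doxorubicin over PBS. The Aars1 to Aars2 ratio was 31.8 ± 3.93, 31.1 ± 3.17, 28.7 ± 2.56 and 27.2 ± 2.85 in the same order of groups.

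The enzymes known from the multi-synthetase complex did not all move alike with doxorubicin over PBS. Eprs1, Lars1, Iars1 and Mars1 fell, Qars1 rose, and Kars1 and Rars1 did not pass, where 21.7% of all genes rose and 21.5% fell. With both compounds over histidine, Eprs1, Lars1, Iars1 and Mars1 again fell, while Qars1, Kars1 and Rars1 did not pass. In that comparison 19.9% of all genes rose and 20.3% fell. The values of the scaffolds that follow are for doxorubicin over PBS first. Of its 3 scaffold proteins 0 passed, with log2 fold changes of 0.17 ± 0.20 for Aimp1, 0.11 ± 0.08 for Aimp2 and 0.38 ± 0.22 for Eef1e1 (edgeR adjusted p = 0.505, 0.284 and 0.171). With both compounds over histidine the scaffolds were at -0.03, 0.08 and -0.23 and 0 of 3 passed. Their summed level was 147 CPM in doxorubicin replicate 4 and 68.4 to 79.6 CPM in the other doxorubicin libraries, against 73.5 to 80.1 CPM with PBS.

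Genes of the Gcn2 and Atf4 pathway were set beside the synthetases, from a list of 16. With doxorubicin over PBS 2 rose and 7 fell, and with both compounds over histidine 1 rose and 8 fell, with medians of -0.36 and -0.38. Among all genes 21.7% rose and 21.5% fell in the first comparison, and 19.9% rose and 20.3% fell in the second. The risers with doxorubicin over PBS were Sesn2 and Cebpb, a transcription factor of the stress response. Cebpb had 517 CPM in doxorubicin replicate 4 and 132 to 162 CPM in the other doxorubicin libraries, against 103 to 156 CPM with PBS. Its log2 change was 0.78 with overlapping groups, and 0.18 without that library (edgeR adjusted p = 0.339); it also lost its call without PBS replicate 1, 2, 4 or 5. Without doxorubicin replicate 4 the list had 1 higher and 11 lower of 16, with Asns, Chac1, Phgdh and Shmt2 called lower. Without doxorubicin replicate 2 or 3 it had 4 higher and 6 lower, with Ddit3 and Ddit4 called higher and Atf4 not called. Psat1, an enzyme of serine synthesis, fell by 1.21 and 1.19 on the log2 scale (edgeR adjusted p = 1.77e-09 and 2.24e-09). Aldh18a1, which opens proline synthesis, fell by 0.64 and 0.57, and Pycr1, which closes it, fell by 1.15 and 1.00. Vldlr, a lipoprotein receptor, fell by 1.53 and 1.12. Atf4 itself fell by 0.26 and 0.39 (edgeR adjusted p = 0.0253 and 0.00166), and the first of these calls was lost without PBS replicate 1 or any doxorubicin replicate but 4, with an edgeR adjusted p of at most 0.072. Sesn2, a leucine sensor that is also a p53 target, rose by 0.66 and 0.86, and Asns, asparagine synthetase, was at -0.12 and -0.11 and did not pass. Of the 16 cytosolic members with a promoter entry, 5 of the 7 with the TGATGCAA element fell with doxorubicin over PBS and 2 did not pass. Of the 9 without it, 5 fell, 1 rose and 3 did not pass. In the Atf4 list 2 of 15 promoters held TGATGCAA, those of Chac1 and Pycr1. With the looser TGATGNAA 3 of 15 did, those of Chac1, Pycr1 and Trib3.

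Other parts of the tRNA charging machinery were read from short lists. Among all genes 43.2% passed with doxorubicin over PBS and 40.2% with both compounds over histidine. The lists are too short for their counts to be set against these shares. Of 4 genes that complete mitochondrial charging by other routes, Gatb, a subunit of the amidotransferase that makes mitochondrial glutaminyl-tRNA, rose by 0.38 with doxorubicin over PBS and by 0.36 with both compounds over histidine. Gatc, another subunit, rose by 0.51 in the first and was at -0.07 in the second. It had 18.3 CPM in doxorubicin replicate 4 and 8.92 to 11.4 CPM in the other doxorubicin libraries, against 7.31 to 8.68 CPM with PBS. Without that library its change was 0.30 (edgeR adjusted p = 0.0722), and without PBS replicate 1 it was 0.47 (edgeR adjusted p = 0.0503). Mtfmt, which formylates the initiator methionyl-tRNA, was at -0.12 in the first and fell by 0.23 in the second. Of 4 editing factors, Aarsd1, which clears mischarged alanine tRNA, fell by 0.37 and 0.54. Of 3 genes of the selenocysteine route, Sephs2, which makes its selenium donor, fell by 1.67 and 1.81. Of 6 measured elongation factors, Eef1b2 rose by 0.62 in the first, with overlapping groups, and was at 0.08 in the second. It had 956 CPM in doxorubicin replicate 4 and 304 to 347 CPM in the other doxorubicin libraries, against 272 to 318 CPM with PBS. Without that library its change was 0.15 (edgeR adjusted p = 0.0481), and the call was lost without PBS replicate 2, 3, 4 or 5. Pstk, a kinase of the selenocysteine route, was at -0.13 and was called lower without doxorubicin replicate 4, at -0.31 (edgeR adjusted p = 0.025).

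Marker lists of several cell types and of dividing cells moved with doxorubicin in the same libraries. Beside the counts that follow, 21.7% of all genes were called higher and 21.5% lower with doxorubicin over PBS. Macrophage and leukocyte markers fell in 10 of 10, to 166 to 253 summed CPM with doxorubicin, against 2016 to 2086 with PBS. Cell cycle markers fell in 8 of 8, to 50.1 to 111 summed CPM, against 662 to 701 with PBS, and cardiomyocyte markers fell in 9 of 10. Smooth muscle and pericyte markers had 6 of 8 lower (2673 to 5848 summed CPM with doxorubicin, 7319.9 to 8468 with PBS). Fibroblast markers had 2 higher and 4 lower of 10, and endothelial markers 2 higher and 4 lower of 7 (24.1 to 35.2 summed CPM with doxorubicin, 22.1 to 32.6 with PBS). The part of these shifts in the synthetase values was not tested, and in whole cultures fewer cells of a type and less RNA per cell cannot be told apart. Without doxorubicin replicates 3 and 4, 4 members rose and 10 fell against PBS.

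Histidine moved no synthetase transcript past the test, alone or with doxorubicin. With both compounds against doxorubicin, 0 of 36 members passed in edgeR and in DESeq2, and 1 had an unadjusted p under 0.05. With histidine against PBS 0 passed in both tools and 1 had an unadjusted p under 0.05, and for the interaction, the difference between the doxorubicin effects with and without histidine, 0 passed and 0 were under 0.05. Over all 15449 genes edgeR called 0 in each of these comparisons (0.0%), with 1940, 312 and 1060 genes at an unadjusted p under 0.05, and DESeq2 called 22, 5 and 17. No member had groups that did not overlap, where with both compounds against doxorubicin 0.563% of all genes did so higher and 0.492% lower, and with histidine against PBS 0.395% and 0.447%. These comparisons share doxorubicin, histidine or PBS libraries with those above. A p that misses the threshold does not show that levels were equal. The members' log2 fold changes ran from -0.29 to 0.29 with both compounds over doxorubicin. Those of the cytosolic set ran from -0.11 to 0.40 with histidine over PBS, and the mitochondrial set had a wider range there.

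Cars1, the cysteinyl enzyme (chr1:198753691-198795941, minus strand), had the smallest p with histidine over PBS. It had 110.3, 77.6, 88.1, 107 and 103 CPM with histidine, against 80.6, 71.5, 73.1, 68.8 and 74.2 CPM with PBS. Histidine was higher except that replicate 2 lay below the highest PBS library. The log2 fold change was 0.40 ± 0.13 (edgeR unadjusted p = 0.0056, adjusted p = 1). Cars1 had 106, 93.4, 97.8, 103 and 104 CPM with both compounds, against 105, 91.1, 58.8, 99.5 and 69.9 CPM with doxorubicin, which were widely spread (0.25 ± 0.13, edgeR unadjusted p = 0.064, adjusted p = 0.411).

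Farsb came next with histidine over PBS, with 64.7, 55.4, 57.3, 62.2 and 68.7 CPM with histidine, against 52.5, 60.9, 60.2, 57.6 and 53.9 CPM with PBS. The groups overlapped widely (log2 fold change 0.11 ± 0.06, edgeR unadjusted p = 0.0941, adjusted p = 1). With both compounds over doxorubicin, Pars2, whose values are given above, was lowest in p at -0.29 ± 0.11 (edgeR unadjusted p = 0.0193, adjusted p = 0.393), with overlapping groups.

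For the interaction, Aars1 and Cars2 had the smallest p. Aars1 had 355, 334, 329, 355 and 372 CPM with both compounds, against 376, 359, 328, 369 and 358 CPM with histidine. It had 337, 335, 296, 294 and 354 CPM with doxorubicin, against 355, 380.1, 360.3, 368 and 381 CPM with PBS. The first pair of groups overlapped, and the second was apart by a narrow gap. The difference of the log2 effects was 0.15 ± 0.09 (edgeR unadjusted p = 0.086, adjusted p = 0.631).

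Cars2, the mitochondrial cysteinyl enzyme, had 8.14, 9.28, 8.54, 8.13 and 8.30 CPM with both compounds, against 11.4, 9.44, 9.23, 9.25 and 10.1 CPM with histidine. It had 9.91, 8.71, 8.46, 7.78 and 10.2 CPM with doxorubicin, against 7.21, 9.52, 9.17, 9.85 and 8.54 CPM with PBS. The both-compound libraries lay below histidine except replicate 2, which fell within its range, while doxorubicin and PBS overlapped fully. The difference of the log2 effects was -0.25 ± 0.14 (edgeR unadjusted p = 0.0914, adjusted p = 0.631).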

How the data were processed

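Whole-number read counts per gene and library, not normalised, and FPKM values, scaled by the authors to gene length and library size, were deposited in a single table, per the file headers. The submitters' processing notes name Trimmomatic and the build mRatBN7.2, and which aligner and counter were used is not given in the sources used here. Per the labels' protocols, mRNA was captured on oligo(dT) beads and the cDNA synthesis kept no record of strand. Group and replicate were taken from the sample titles, and 0 columns of values were left without a sample.

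Counts were filtered with edgeR's filterByExpr (15449 of 15503 genes kept) and scaled by TMM. Groups were compared with the quasi-likelihood F test of edgeR (version 4.0.16, R 4.3.3) in 1 fit of the 4 group means over 20 libraries, with Benjamini-Hochberg adjustment over all genes tested and a threshold of 0.05. Groups are called apart where no library of one overlaps the other's range in CPM. Levels between groups are TMM-scaled CPM and levels between genes are FPKM. Alternatives were RLE size factors, no filter, DESeq2 1.42.0, a fit of the 2 groups only, a replicate block, leaving out each library and, chosen after seeing the data, leaving out doxorubicin replicates 3 and 4. The fit was tested on simulated counts.

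Symbols of members came from a RefSeq gene table (GRCr8), used only for names: 23 through a protein accession, 12 through the KEGG name, compartment and chromosome, and 1 had none. Promoter sequences are from RefSeq (GRCr8). Of the members, 10 overlap another gene of the table. Values in every library are given for up to 4 called members per set and direction with the largest change with doxorubicin over PBS, and for the 2 smallest p in comparisons without calls; Pars2, Hars2, Tars2 and Fars2 were also described for their scatter or calls. Some members and sequences that the counts include are not reported here. Members and gene lists were chosen with earlier results of these data known.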

Additional observations from a re-analysis of the deposited data

Results flagged for a closer look

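Within the 4 groups of 5 libraries, 14 of 136 sets of values had 1 library separated from the other 4 by more than 0.71 of the whole range; chance alone gives about 1 in 20. Doxorubicin replicate 4 accounted for 4 of these. It was high for Kars1 (217 CPM, others 135 to 158) and Hars2 (129.7, others 69.8 to 74.6), and low for Qars1 (187, others 202 to 207) and Aars2 (8.88, others 11.4 to 12.4). Among the other doxorubicin libraries, Iars2 was high in replicate 1 (88.0 CPM) and Nars2 in replicate 5 (11.9 CPM).

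With both compounds, replicate 3 was low for Lars1 (122 CPM), replicate 2 was low for Fars2 (0.959), replicate 5 was high for Sars1 (218) and replicate 4 was high for Nars2 (11.3). With histidine, Lars1 was low in replicate 3 (134 CPM) and Aars2 was high in replicate 1 (16.3). With PBS, replicate 1 was low for Kars1 (139.7 CPM, others 148 to 149) and for Sars2 (5.90, others 7.88 to 8.43).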

How the results depend on the processing

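No member that was called changed direction under any alternative run. Against PBS, doxorubicin raised 5 and lowered 11 members with RLE size factors, with no filter and with DESeq2, and 5 and 9 in a fit of the 2 groups only, which lost Sars1 and Aars1. Leaving out 1 library gave 4 to 6 higher and 10 to 12 lower. For both compounds against histidine, RLE size factors, no filter and DESeq2 gave 3 higher and 11 lower, while leaving out 1 library gave 9 to 14 calls in all and 6 to 11 lower, the fewest without histidine replicate 1 or 5, and 7 lower without both-compound replicate 3. The cause was not tested. Yars1, Eprs1, Mars1, Tars1, Vars1, Wars2 and Iars2 kept their calls in both comparisons in all 10 fits that left out 1 library. For the histidine comparisons and the interaction, 0 members passed in every alternative run.

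The labels do not say what a replicate number shares, and deviations of same-numbered libraries correlated at -0.0766 to 0.193, not above 0.1 in every pair, so the numbers were not taken to pair the samples. As a hint from the data, replicate 3 was the highest library on the third principal component (7.17, 39.9, 36 and 19) and had the lowest cytosolic sum (2888, 2794, 3052 and 3339 CPM) with both compounds, doxorubicin, histidine and PBS. With the replicate number as a block, 5 members rose and 11 fell with doxorubicin, 3 and 10 with both compounds over histidine (Farsb lost), and 0 passed elsewhere. Depth limits the members with few reads, the lowest being 58 reads for Fars2.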
